A study of Mus musculus with 6 samples.

Results

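The mitochondrial beta-oxidation enzymes described here are 10 genes named by a list: *Acadvl*, *Hadha*, *Hadhb*, *Acadl*, *Acadm*, *Hadh*, *Eci1*, *Eci2*, *Decr1* and *Etfdh*. They were matched by symbol to Ensembl identifiers in GENCODE M21 (GRCm38, the same build as mm10), all 10 of 10 were found among the 54232 genes of the count files, and all 10 passed the filter on low counts that left 14133 genes for testing. Heart ventricle RNA of wild-type C57BL/6J mice was sequenced from 3 mice treated with Tributyrin, a triglyceride of butyrate, and 3 mice treated with vehicle, which the sample labels call PBS. Both groups were fed western diet (WD) for 15 weeks before needle feeding for 3 weeks, and the treated group received 5 g/kg body weight of Tributyrin. The study used male and female mice, and the labels of these libraries give neither sex nor age. Both groups being on WD, no value here describes the diet itself, and mice on other diets were not analysed here.

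Beta-oxidation shortens a fatty acyl-CoA in the mitochondrial matrix by repeated rounds of dehydrogenation, hydration, a further dehydrogenation and thiolytic cleavage, and the adult heart draws most of its fuel from it. Long chains are handled at the inner membrane by the very long-chain acyl-CoA dehydrogenase and the trifunctional protein, and shorter chains by soluble enzymes of the matrix. Unsaturated chains need auxiliary isomerases and a reductase, and electrons from the acyl-CoA dehydrogenases pass through the electron transfer flavoprotein to its dehydrogenase in the membrane. In this tissue the genes are known as targets of the nuclear receptors PPARα and ERRα.

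*Hadha* and *Hadhb* encode the alpha and beta subunits of the trifunctional protein and lie head to head on chromosome 5. *Hadha* runs on the minus strand from 30118304 to 30155162 and *Hadhb* on the plus strand from 30155248 to 30184593, so that 85 bases separate the annotated genes. Promoter windows of 300 bases, from 250 before to 50 after the start, were taken from RefSeq (GRCm38.p6) and found for 9 of the 10 members, all but *Decr1*. The RefSeq starts of *Hadha* and *Hadhb* lie 273 bases apart, so these windows are not placed on the gene ends given above. The *Hadha* window, chr5:30154931-30155230 on the minus strand, is printed because the pair shares it. Capitals mark the 228 bases that also lie in the window of *Hadhb*.
Hadha: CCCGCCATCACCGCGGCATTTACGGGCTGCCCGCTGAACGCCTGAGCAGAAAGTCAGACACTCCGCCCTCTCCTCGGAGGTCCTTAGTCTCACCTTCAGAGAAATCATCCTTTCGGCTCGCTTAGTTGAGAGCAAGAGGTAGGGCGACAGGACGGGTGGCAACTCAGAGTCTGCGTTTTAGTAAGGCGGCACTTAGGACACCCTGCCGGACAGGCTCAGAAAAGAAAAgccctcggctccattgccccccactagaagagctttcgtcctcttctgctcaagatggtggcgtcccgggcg

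Each window was searched on both strands for AGGTCA, the element that nuclear receptors of this kind bind, for TCAAGGTCA, its extended form for ERR, and for the direct repeat of PPAR with RXR, which is AGGTCA written 2 times with any 1 base between. The longer motifs contain the shortest one. AGGTCA was found in 2 of the 9 windows, against 16.3% of all 32851 promoter windows of this length. TCAAGGTCA (0.423% of all windows) and the direct repeat (0.0396%) were found in 0 of the 9, which says only that these letters are not in these windows. The members with a match were *Acadvl* (chr11:70015379-70015678, minus strand) and *Acadm* (chr3:153944594-153944893, minus strand, where the match is on the other strand and reads TGACCT), printed with the match in capitals.
Acadvl: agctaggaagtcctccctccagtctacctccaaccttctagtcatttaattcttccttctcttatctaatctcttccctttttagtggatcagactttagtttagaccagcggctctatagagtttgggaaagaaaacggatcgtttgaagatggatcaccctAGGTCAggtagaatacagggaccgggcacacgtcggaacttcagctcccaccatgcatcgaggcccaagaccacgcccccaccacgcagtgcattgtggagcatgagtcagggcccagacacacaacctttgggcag
Acadm: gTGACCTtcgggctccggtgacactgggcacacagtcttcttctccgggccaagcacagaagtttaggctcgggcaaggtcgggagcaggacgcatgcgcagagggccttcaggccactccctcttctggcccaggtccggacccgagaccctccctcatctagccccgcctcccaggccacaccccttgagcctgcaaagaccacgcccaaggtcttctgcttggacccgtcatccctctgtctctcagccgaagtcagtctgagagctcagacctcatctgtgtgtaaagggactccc

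The libraries held 20369746 to 32734485 counts on genes. No library was removed. The ventricular cardiomyocyte markers were present in every library, with a summed level of 81609 to 84089 CPM (counts scaled to the library total) with vehicle and 76440 to 83922 with Tributyrin, 9 of 12 higher and 3 lower with Tributyrin in the fit described below. Atrial markers summed to 182.0, 178.9 and 55.9 CPM in vehicle mice 1 to 3 and to 30.4, 64.3 and 43.7 CPM in Tributyrin mice 1 to 3. These sums overlapped between the groups (two-sided exact permutation test, p = 0.2). The 5 tested of 6 were lower, 4 of them at an unadjusted p under 0.05 in that fit, where 2.28% of all genes were lower and 1.97% higher. Also at that level were 3 ventricular, 2 smooth muscle and 1 endothelial marker, each higher, and 1 ventricular and 1 fibroblast marker, each lower. Of the macrophage and erythroid markers 0 were. Fibroblast markers (4 of 6 lower, 807.6 to 943.1 CPM with vehicle and 694.7 to 907.3 with Tributyrin), endothelial markers (3 of 6 lower, 880.5 to 927.8 and 876.8 to 948.6), macrophage markers (6 of 6 lower, 123.1 to 162.5 and 112.5 to 156.1), smooth muscle markers (4 of 4 higher, 129.9 to 194.9 and 107.4 to 226.2) and erythroid markers (3 of 5 higher, 508.4 to 722.5 and 382.7 to 923.1) overlapped between the groups. Adipocyte markers reached at most 3.41 CPM, none of the 6 passed the filter and *Ucp1* was listed at 0. The part of these markers in the results was not tested, other than for the atrial markers as stated below. In RNA from whole tissue, fewer cells of a type and less RNA per cell cannot be told apart.

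The 10 transcripts were among the more abundant of the ventricle. Levels were compared between genes as normalized counts (counts over each library's DESeq2 size factor) per kilobase of the principal transcript. On this scale *Acadm*, the medium-chain acyl-CoA dehydrogenase, stood highest, with 18464 ± 893.6 (SD, n = 3) with vehicle, and ranked 49 of 12907 protein-coding genes by its mean over the 6 libraries. *Acadl*, the long-chain acyl-CoA dehydrogenase of the matrix, followed at 16183 ± 654.5 (SD, n = 3), and *Hadhb* at 13810 ± 333.5 (SD, n = 3). *Hadha* was at 12004 ± 454.3 (SD, n = 3), *Hadh*, the soluble hydroxyacyl-CoA dehydrogenase, at 10848 ± 294.6 and *Etfdh*, which passes electrons from the flavoprotein to ubiquinone, at 9563 ± 564.2 in vehicle mice. The next pair, *Acadvl* at 6989 ± 366.2 and *Eci1* at 6651 ± 243.2, could not be ordered, since their ranges overlapped in both groups and *Acadvl* was the higher in 5 of 6 libraries. *Decr1*, the dienoyl-CoA reductase, at 4516 ± 155.0 and *Eci2* at 1951 ± 73 per kilobase, rank 601, were the lowest.

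The other neighbours kept their order in 6 of 6 libraries, and their ranges were apart in both groups except for *Hadh* and *Etfdh* with Tributyrin. The order of the means in the Tributyrin mice was the same apart from *Eci1* at 7659 ± 636.8 and *Acadvl* at 7436 ± 353.9, which changed places. *Acadvl* stayed the higher in Tributyrin mouse 1 (7821 against 7677) and mouse 2 (7364 against 7014), and *Eci1* was the higher in mouse 3 (8287 against 7124). The order of the members depends on the length used: per kilobase of all annotated exons, retained introns included, *Acadl* was the first, *Acadm* the second and *Acadvl* the third, and *Etfdh* was the ninth.

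**Figure D1:**
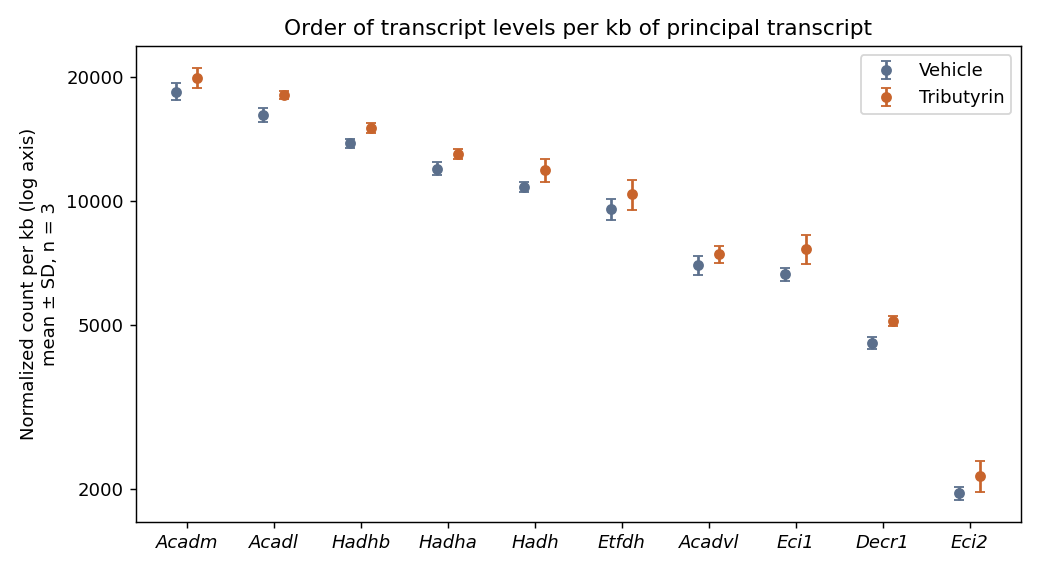
Normalized counts per kilobase of the principal transcript (log axis) for the 10 members, as mean ± SD of 3 mice with vehicle (blue) and 3 with Tributyrin (orange). The order runs from *Acadm*, with a vehicle mean of 18464, to *Eci2*, with 1951, and the Tributyrin mean is the higher one for each gene.

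The groups were compared to ask whether Tributyrin altered these transcripts in the WD-fed heart. By the quasi-likelihood test of edgeR, adjusted by Benjamini-Hochberg over the 14133 genes, 0 of the 10 members passed an FDR of 10%, where 0 of all genes (0%) did, and 0 passed 5% (0% of all genes), and the adjusted p was 0.999 for each member. The log2 fold changes of Tributyrin over vehicle were all above 0, from 0.09 to 0.20, with a median of 0.13, where the median of all genes tested was 0.00 and 49.6% of all genes were above 0. At an unadjusted p under 0.05 there were 3 members, *Eci1*, *Decr1* and *Acadl*, each higher with Tributyrin, where 4.25% of all genes stood at that level, 1.97% higher and 2.28% lower. The number was also 3 with limma-voom, for which the share of all genes is not given here, and with DESeq2. For DESeq2, run without the filter on low counts, 0.837% of 25578 genes were higher at that level. That share is over more genes than the 1.97% and is not comparable to it. In edgeR the number of members at that level rested on single mice: it was 7 without Tributyrin mouse 2, 1 without vehicle mouse 2, and 0 without vehicle mouse 3 or Tributyrin mouse 1. With scaling by library size alone the number was 0 and the median was 0.06, where the median of all genes was -0.07. The share of all genes at that level is not given here for these fits, so their numbers do not set the members apart from other genes. For 5 members, *Hadha*, *Hadhb*, *Acadl*, *Eci1* and *Decr1*, every Tributyrin mouse lay above every vehicle mouse, as it did for 4.26% of all genes.

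*Acadvl*, which opens the oxidation of long chains at the inner membrane (ENSMUSG00000018574, chromosome 11, 70010183 to 70015411, minus strand), had the smallest log2 fold change with all mice and no covariate. Without Tributyrin mouse 3 it did not, with *Acadvl* at 0.13 and *Hadh* at 0.10. Without Tributyrin mouse 2, *Acadvl* and *Hadha* were both at 0.10. With the mitochondrial share as a covariate, *Acadvl* was at 0.04 and *Etfdh* at -0.03. With the atrial marker level, *Acadvl* was at 0.10 and *Acadm* at 0.07. The normalized counts of *Acadvl* were 16069, 14665 and 14725 in the vehicle mice and 16955, 15965 and 15445 in the Tributyrin mice. Only Tributyrin mouse 1 lay above the highest vehicle mouse, and the log2 fold change was 0.09 (95% interval -0.07 to 0.25). *Dvl2*, on the opposite strand, shares 1151 exonic bases with *Acadvl* and had 104 to 165 counts in a library.

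*Hadha* (ENSMUSG00000025745), whose product hydrates the chain and oxidizes the hydroxyacyl-CoA, had 50039, 46390 and 48234 normalized counts with vehicle and 51982, 53877 and 51201 with Tributyrin. The groups did not overlap, and the mean was 8.57% higher with Tributyrin. *Hadhb* (ENSMUSG00000059447), the thiolase subunit, had 28885, 27540 and 28420 with vehicle and 31433, 31239 and 29808 with Tributyrin. Its groups were apart too and its mean was 9% higher with Tributyrin, with log2 fold changes of 0.12 (-0.03 to 0.27) for *Hadha* and 0.13 (-0.02 to 0.27) for *Hadhb*. The level of *Hadhb* is uncertain, since the processed pseudogene *Gm13910* matches 1428 bases of its transcript at 99.8% identity and *Gm9108* matches 1426 bases at 97.6%, so reads could have been split or dropped by the counting. *Gm13910* had 195 to 370 counts in a library.

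*Acadl* (ENSMUSG00000026003, chromosome 1, 66830839 to 66863277, minus strand) had the largest difference among the members that serve saturated chains, with all mice and no covariate. Without Tributyrin mouse 2, *Acadl* and *Hadh* were both at a log2 fold change of 0.18. With the mitochondrial share as a covariate, *Hadhb* (0.13) and *Hadha* (0.11) were above *Acadl* (0.10). The normalized counts of *Acadl* were 32423, 30557 and 30039 with vehicle and 35419, 33816 and 34761 with Tributyrin, a mean of 31007 ± 1254 against 34666 ± 805.8 (SD, n = 3). The groups were apart and the log2 fold change was 0.16 (standard error 0.067, 95% interval 0.01 to 0.31, unadjusted p = 0.0348 and adjusted p = 0.999 in edgeR). *Acadm* (ENSMUSG00000062908, chromosome 3, 153922357 to 153944632, minus strand) had 39766, 36150 and 37472 with vehicle and 43038, 38391 and 41226 with Tributyrin. Tributyrin mouse 2 lay below vehicle mouse 1, so that the groups overlapped, and the log2 fold change was 0.11 (-0.05 to 0.28).

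*Hadh* (ENSMUSG00000027984, chromosome 3, 131233419 to 131272101, minus strand) had 20014, 19135 and 19070 normalized counts with vehicle and 21619, 19780 and 22527 with Tributyrin. Here as well Tributyrin mouse 2 lay below vehicle mouse 1, and the log2 fold change was 0.14 (-0.02 to 0.29). By chain length, the median log2 fold change was 0.12 for the 4 long-chain genes *Acadvl*, *Hadha*, *Hadhb* and *Acadl*, and 0.12 for *Acadm* and *Hadh*.

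*Eci1* (ENSMUSG00000024132, chromosome 17, 24426641 to 24439348, plus strand) is an enoyl-CoA isomerase that moves a double bond so the chain can be oxidized further. With all mice and no covariate it had the largest log2 fold change of the 10. Without Tributyrin mouse 3 it did not, with *Eci1* at 0.15, *Decr1* at 0.17 and *Acadl* at 0.16. Without vehicle mouse 2, *Eci1* and *Decr1* were both at 0.20. With the mitochondrial share as a covariate, *Eci1* was at 0.06 and was not the largest. It had 7838, 7564 and 7285 normalized counts with vehicle and 8729, 7975 and 9422 with Tributyrin, a mean of 7563 ± 276.5 against 8709 ± 724.0 (SD, n = 3). The groups were apart, although Tributyrin mouse 2 lay close to the highest vehicle mouse. The log2 fold change was 0.20 (standard error 0.077, 95% interval 0.03 to 0.37, unadjusted p = 0.0233 and adjusted p = 0.999 in edgeR).

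*Eci2* (ENSMUSG00000021417, chromosome 13, 34977748 to 35027096, minus strand), an isomerase with the same kind of reaction, had 3517, 3436 and 3267 with vehicle and 3936, 3384 and 3950 with Tributyrin. Tributyrin mouse 2 lay among the vehicle mice, and the log2 fold change was 0.14 (-0.03 to 0.32). Its paralog *Eci3* matches 866 bases of the transcript at 92.3% identity and had at most 3 counts in a library.

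*Decr1* (ENSMUSG00000028223, chromosome 4, 15917240 to 15945507, minus strand) had 13426, 13788 and 12877 normalized counts with vehicle and 15354, 14637 and 15345 with Tributyrin, a mean of 13364 ± 458.8 against 15112 ± 411.6 (SD, n = 3). The groups were apart, with a mean 13.1% higher with Tributyrin. The log2 fold change was 0.18 (standard error 0.065, 95% interval 0.03 to 0.32, unadjusted p = 0.0207 and adjusted p = 0.999 in edgeR), which was rank 234 of all genes by p. The median log2 fold change of the 3 genes for unsaturated chains was 0.18.

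*Etfdh* (ENSMUSG00000027809, chromosome 3, 79603788 to 79629500, minus strand) had 24265, 21778 and 22151 normalized counts with vehicle and 26583, 22515 and 25037 with Tributyrin. The groups overlapped, and the log2 fold change was 0.12 (-0.06 to 0.30). With 3 mice against 3, the two-sided exact permutation test of a single gene gives no p under 0.1, the value it gave for the 5 members whose groups were apart.

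**Figure D2:**
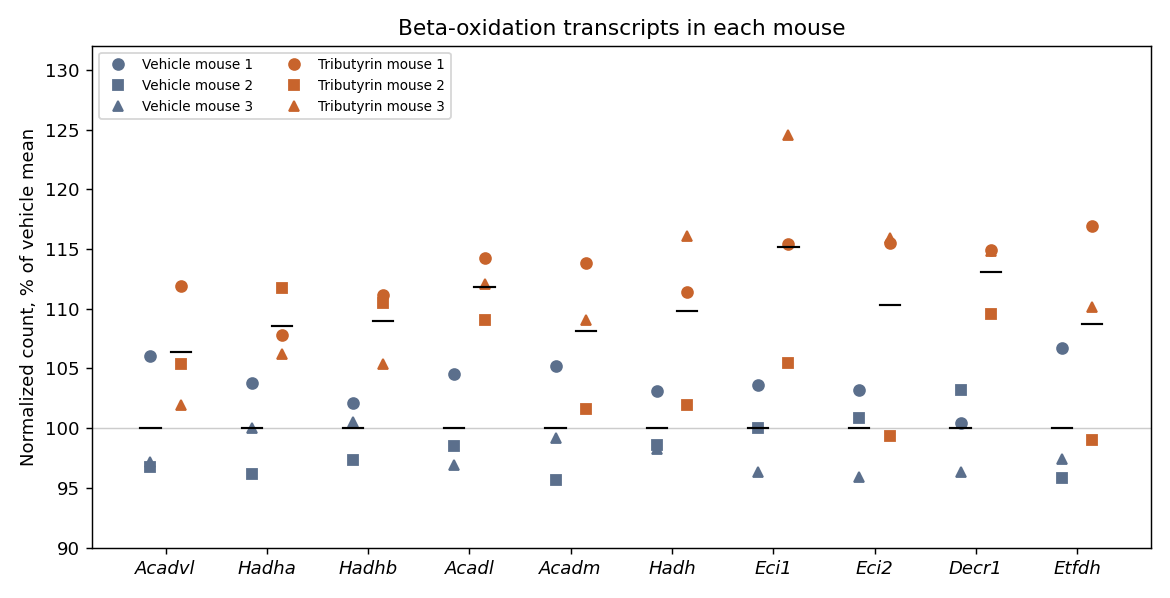
Normalized counts of each member in each mouse as a percentage of the vehicle mean of that gene, with vehicle in blue, Tributyrin in orange, symbols for the mouse number and black bars for group means. *Hadha*, *Hadhb*, *Acadl*, *Eci1* and *Decr1* have all 3 Tributyrin mice above all 3 vehicle mice, and Tributyrin mouse 2 (square) is the lowest Tributyrin mouse for 7 of the 10 genes.

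The mice differed in level across most members together. Vehicle mouse 1 was the highest vehicle mouse for 9 of 10 genes, all but *Decr1*. Among Tributyrin mice, mouse 2 was the lowest for 7 genes, *Acadl*, *Acadm*, *Hadh*, *Eci1*, *Eci2*, *Decr1* and *Etfdh*, and mouse 3 was the lowest for *Acadvl*, *Hadha* and *Hadhb*, the 3 long-chain genes of the inner membrane. The coefficient of variation between mice was 2.4% (*Hadhb*) to 5.9% (*Etfdh*) with vehicle and 2.3% (*Acadl*) to 8.6% (*Eci2*) with Tributyrin, while the relative SD from counting was 1.95% at most (*Eci2*).

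The counts on the mitochondrial genome were high in the same mice as the members. They took 24.7% ± 1.6 (SD, n = 3) of the library with vehicle and 27.5% ± 1.5 (SD, n = 3) with Tributyrin, with overlapping groups (two-sided exact permutation test, p = 0.2). By mouse the share was 26.52%, 23.58% and 24.09% with vehicle and 27.69%, 25.89% and 28.78% with Tributyrin. The mean log2 deviation of the 10 members from their average over all libraries was -0.01, -0.09 and -0.10 in the vehicle mice and 0.11, 0.01 and 0.09 in the Tributyrin mice. Of the mitochondrial genes, 10 of 15 were tested and 4 were listed at 0 in every library, so the share holds no counts of those 4. All 10 tested genes were higher with Tributyrin, where 49.6% of all genes were above 0. An unadjusted p under 0.05 in edgeR was reached by 6 of the 10, where 1.97% of all genes were higher at that level. For 1 of the 10, every Tributyrin mouse lay above every vehicle mouse, as for 4.26% of all genes. Vehicle mouse 1 and Tributyrin mouse 2 lay close to each other on both measures.

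With the mitochondrial share as a covariate, a setting added after the data were seen, the median log2 fold change of the members was 0.05 and 9 of 10 were above 0, with 0 members at an unadjusted p under 0.05. *Decr1* (0.15), *Hadhb* (0.13), *Hadha* (0.11) and *Acadl* (0.10) had the highest values there. *Eci1*, at 0.20 without the covariate, was at 0.06, and *Etfdh* was at -0.03. The share and the treatment are partly confounded in 6 mice, and their parts cannot be told apart. With the atrial marker level as a covariate, also added after the data were seen, the median was 0.12 and 10 of 10 were above 0, but 0 members had an unadjusted p under 0.05, with *Acadl* at 0.19, *Eci1* at 0.22 and *Decr1* at 0.21.

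**Figure D3:**
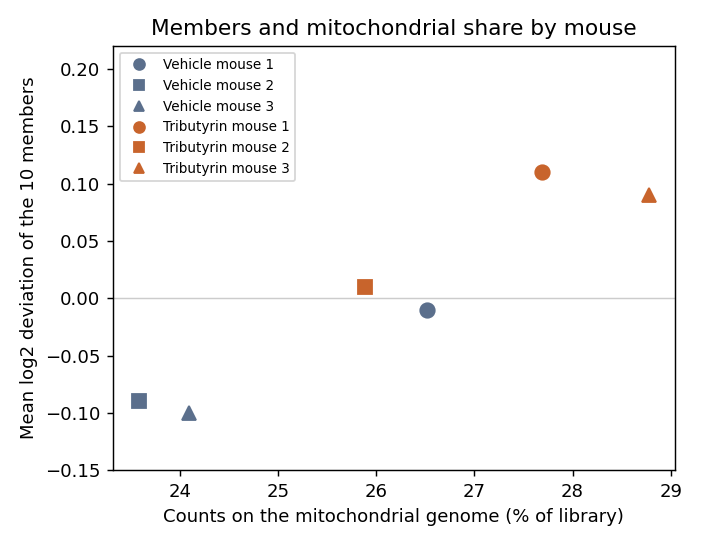
Mean log2 deviation of the 10 members in each library against the percentage of its counts on the mitochondrial genome, with 1 point per mouse (vehicle blue, Tributyrin orange). Vehicle mice 2 and 3 are at the lower left and Tributyrin mice 1 and 3 at the upper right, while vehicle mouse 1 (26.52%, -0.01) and Tributyrin mouse 2 (25.89%, 0.01) lie close together between them.

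Ratios of counts between members within a library do not depend on the scaling between libraries, and were used to ask whether the enzymes of different chain lengths differed unequally between the groups. The ratio of *Hadha* to *Hadhb* counts was 1.73, 1.68 and 1.7 with vehicle and 1.65, 1.72 and 1.72 with Tributyrin. The log2 ratio differed by -0.01 (standard error 0.023), less than the mice differed among themselves (exact permutation test, two-sided, p = 0.8, adjusted p = 1 over the 5 ratios tested). *Acadl* to *Acadm* was 0.815, 0.845 and 0.802 with vehicle and 0.823, 0.881 and 0.843 with Tributyrin, a log2 difference of 0.05 (standard error 0.036, exact permutation p = 0.3, adjusted p = 0.5). The groups overlapped for both ratios.

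*Eci1* to *Eci2* was 2.23, 2.2 and 2.23 with vehicle and 2.22, 2.36 and 2.39 with Tributyrin, so that 2 of 3 Tributyrin mice were above the vehicle mice and the third was among them (log2 difference 0.06, standard error 0.033, exact permutation p = 0.3, adjusted p = 0.5). *Acadvl* to *Acadl* was 0.496, 0.48 and 0.49 with vehicle and 0.479, 0.472 and 0.444 with Tributyrin. This was the only ratio whose groups were apart, with vehicle mouse 2 next to Tributyrin mouse 1, and the log2 difference was -0.07 (standard error 0.036, adjusted p = 0.5, exact permutation p = 0.1).

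The summed counts of the 4 long-chain genes over those of *Acadm* and *Hadh* were 2.13, 2.16 and 2.15 with vehicle and 2.1, 2.32 and 2.06 with Tributyrin. The log2 ratio differed by 0.01 (standard error 0.053, exact permutation p = 1, adjusted p = 1), and its SD was 0.01 among vehicle mice and 0.09 among Tributyrin mice. The smallest p of the exact permutation test was 0.1 for each ratio, so that none could pass a threshold of 0.05, and these tests do not show that the classes were alike.

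**Figure D4:**
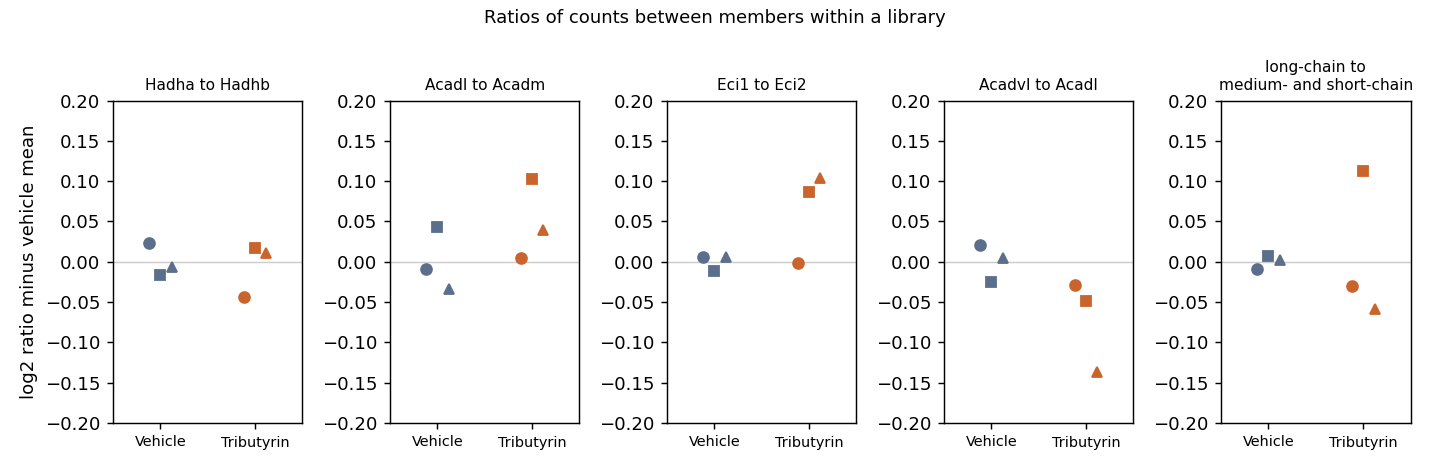
log2 ratios of counts between members within each library, minus the vehicle mean, for the 5 ratios tested, with vehicle in blue, Tributyrin in orange and the mouse number by symbol (circle 1, square 2, triangle 3). The differences of the group means run from -0.07 for *Acadvl* to *Acadl* to 0.06 for *Eci1* to *Eci2*, and Tributyrin mouse 2 stands highest for the long-chain to medium- and short-chain ratio.

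As a share of all counts on genes, the 10 members took 0.884% ± 0.014 (SD, n = 3) with vehicle and 0.921% ± 0.031 with Tributyrin, with overlapping groups (two-sided exact permutation test, p = 0.2). Without the counts on the mitochondrial genome the shares were 1.17% ± 0.043 and 1.27% ± 0.04, and the groups were apart (p = 0.1, exact permutation test).

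Other genes of the pathway were described for comparison, and 0 of them passed an FDR of 10% in edgeR (0% of all genes). Of 9 further matrix and electron transfer genes, 8 had log2 fold changes above 0, with a median of 0.11, where 49.6% of all genes were above 0, and 3 were higher at an unadjusted p under 0.05, as were 1.97% of all genes. These were *Etfb*, the beta subunit of the electron transfer flavoprotein (0.23, 95% interval 0.05 to 0.41), *Ech1*, a dienoyl-CoA isomerase (0.20, 0.04 to 0.37), and *Acaa2*, the soluble thiolase (0.24, 0.04 to 0.43), and for each the groups were apart, as for 4.26% of all genes. *Etfb* is uncertain, because *Gm45233*, listed at 0 counts, overlaps 13673 of its 13718 bases on the same strand. *Acads*, the short-chain acyl-CoA dehydrogenase, was at 0.06 (-0.09 to 0.21).

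Of the carnitine shuttle, which brings long chains into the matrix, 2 of 4 genes were above 0 and 0 had an unadjusted p under 0.05, with *Cpt2* at 0.11 (-0.03 to 0.25) and *Slc25a20* at 0.13 (-0.06 to 0.32). The other 2 were below 0, *Cpt1a* at -0.06 (-0.29 to 0.18) and *Cpt1b* at -0.16 (-0.46 to 0.14). *Cpt1b*, the transferase of muscle, had 143.5 ± 11.2 normalized counts (SD, n = 3) with vehicle against 1582 ± 229.4 for *Cpt1a*, but its whole length of 9459 bases is overlapped on the same strand by *Gm44502*, listed at 0 counts, so its level is uncertain. Of 7 tested genes of peroxisomal beta-oxidation, 3 were above 0, with a median of -0.02, and 0 had an unadjusted p under 0.05. *Decr2*, the peroxisomal counterpart of *Decr1*, was at -0.21 (-0.44 to 0.01) with every Tributyrin mouse below every vehicle mouse, as for 4.65% of all genes.

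Of 8 regulators, the PPAR, RXR, ERR and PGC-1 genes, 4 were above 0, with a median of 0.01, and 0 had an unadjusted p under 0.05. *Ppargc1b* was at -0.29 (-0.74 to 0.15) and *Ppargc1a* at 0.12 (-0.15 to 0.40), both coactivators. *Ppara* was at -0.08 (-0.29 to 0.13) and *Esrra* at 0.08 (-0.10 to 0.26), so that their intervals include both directions.

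**Figure D5:**
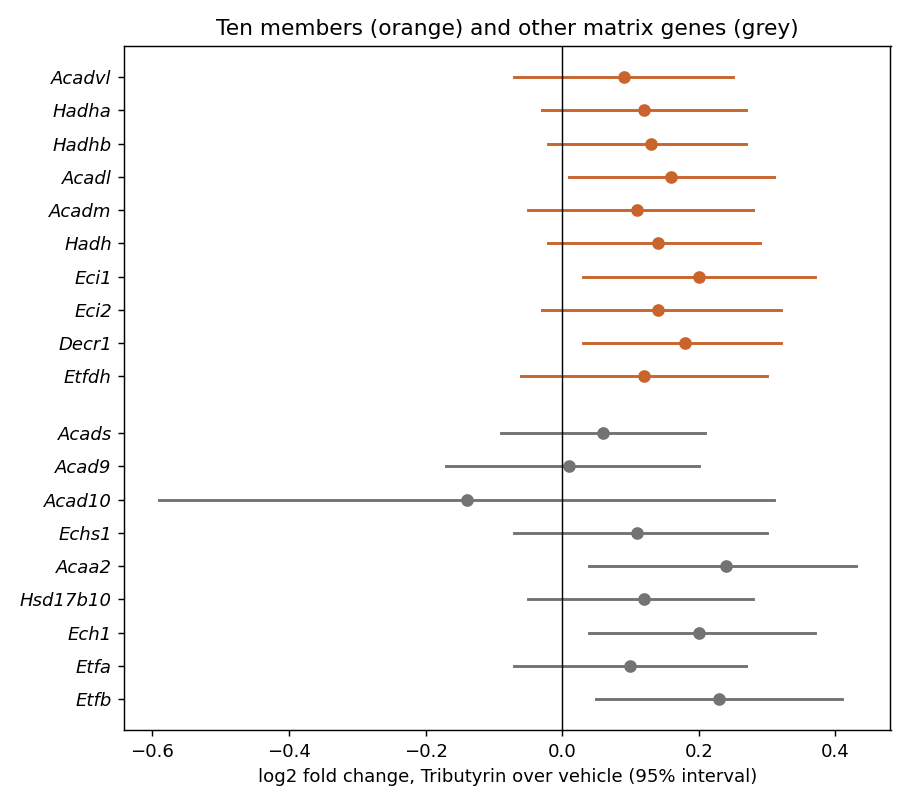
log2 fold change of Tributyrin over vehicle with its 95% interval from edgeR for the 10 members (orange) and 9 other matrix and electron transfer genes (grey). Among the members the intervals of *Acadl*, *Eci1* and *Decr1* lie above 0 before adjustment over all genes, and *Acad10*, at -0.14, is the only gene drawn with an estimate below 0.

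The genes whose log2 normalized counts followed the mean profile of the 10 members most closely over the 6 libraries were *Smim4* (Pearson r 0.991), *Sem1* (0.990), *Mgst1* (0.988), *Hrc* (0.987) and *A530016L24Rik* (0.986). Of 14123 other genes, 1.46% had an r of at least 0.9 over these 6 points, which share the library scaling. The members themselves had an r of 0.733 (*Hadha*) to 0.979 (*Acadl*) with their own mean. That mean includes each member itself, which raises its r, while the other genes are not part of it.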

How the data were processed

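Stranded mRNA libraries of heart ventricle from 6 mice were analysed. The authors trimmed adapters (cutadapt 1.13, per the submitters' processing notes), filtered out rRNA and low-quality reads, aligned to mm10 with STAR and counted with HTSeq 0.6.1p1. The deposited values are whole, unnormalized counts per Ensembl gene. For the counting, neither strand setting nor annotation release is given in the sources used here. Overlapping genes and near-identical copies could have lost reads to the counting.

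Counts of 14133 genes were tested with edgeR 4.0.16 (quasi-likelihood, TMM scaling, filterByExpr with a minimum count of 10 and total of 15) in R 4.3.3, with Benjamini-Hochberg adjustment and thresholds of 10% and 5%. Standard errors and 95% intervals come from the F statistic and its degrees of freedom. DESeq2 1.42.0 and limma 3.58.1 were alternatives. The main edgeR fit, DESeq2 without a prior and limma-voom were run on simulated counts, and the other settings were not. The check on recovery there covered only changes larger than those of the members. Ratios and shares were compared with two-sided exact permutation tests (scipy 1.17.1). Copies were sought with minimap2 (at least 200 aligned bases and 90% identity), and a pseudocount of 0.5 was added for profiles. Counting errors cover counting only. The labels do not say that the libraries come from separate litters or cages. The p-values take the mice of a group as independent and set the group difference against the spread between these mice.

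The genes named are the 10 members, of each other list the 2 with the smallest unadjusted p (1 gene under this rule is not reported here), the 5 with the most similar profile and genes overlapping a member on the same strand (*Gm15793*, *Mir1960*, *Mir6400* and *Gm37973*, which share 0 exonic bases and had at most 6 counts). *Acaa2*, *Acads*, *Acad10*, *Cpt1a*, *Cpt1b*, *Ppara*, *Esrra*, *Ucp1*, the copies and the other overlapping genes were named after their values were seen. The members and lists were chosen with earlier results of these data known.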

Additional observations from a re-analysis of the deposited data

How the results depend on the processing

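The 10 members were above 0 in every alternative except 1: with the mitochondrial share as a covariate 9 were, and *Etfdh* was at -0.03. No member passed an FDR of 10% in any alternative, where the lowest adjusted p was 0.381 (*Eci1*, without tributyrin replicate 2). Their median log2 fold change moved from 0.13 to 0.06 with library size alone, where the median of all genes was -0.07, and to 0.05 with the mitochondrial share as a covariate. Members at an unadjusted p under 0.05 numbered 3, and 0 with library size alone, with the mitochondrial share or with the atrial marker level as a covariate, where the median was 0.12 and *Acadl*, *Eci1* and *Decr1* were at 0.19, 0.22 and 0.21. Leaving out a mouse, this number ran from 0 (without vehicle replicate 3 or tributyrin replicate 1) to 7 (without tributyrin replicate 2), with 1 without vehicle replicate 2. The share of all genes at that level is not given here for these alternatives. The cause of these changes was not tested.

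Over all genes, 167 passed 10% and 140 passed 5% with no filter on low counts, 11 and 5 by DESeq2 without a prior, and 9 and 5 with one, and leaving out a mouse gave 0 to 3 at both thresholds. The replicate block gave 2 genes at 10%, 0 of them members, with a member median of 0.13. The deviations of same-numbered libraries correlated at 0.214, 0.038 and 0.015, and the labels name no shared animal or litter, so no pairing was assumed. The covariates were chosen after the data were seen. The summed endothelial level differed by 0.07 on the log2 scale without mitochondrial counts, against 0.02 with them.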
